A study of Mus musculus with 8 samples.

Results

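The genes of motile cilia were examined in RNA-Seq libraries of distal lung epithelium. The set held 39 of the 22756 genes in the files: the 15 axonemal dynein heavy chain genes, taken as every symbol of the form Dnahc followed by a number (the spelling of Dnah genes in these files), and 24 further listed genes, among them Foxj1, intermediate and light dynein chains, tektins, radial spoke and central pair proteins, rulers of the axoneme and intraflagellar transport (IFT) proteins. There were 8 libraries in 4 groups, each of 1 male and 1 female library from adult mice of a mostly C57BL/6 strain. All mice carried a tauGFP reporter after an IRES in Chrna7, the gene of the nicotinic acetylcholine receptor subunit α7. The α7G mice (Chrna7-IRES-tauGFP) carried the reporter alone, and α7E260A:G mice (Chrna7-E260A-IRES-tauGFP) also carried the E260A substitution in the receptor. Mice breathed room air (control) or side-stream cigarette smoke (CS) on 5 days per week for 4 months. RNA came from lavaged, trachea-free distal lung after CD45-positive cells were removed on magnetic beads. How many mice went into a library is not stated, so p-values measure the spread between these libraries, and within a group that spread is also the difference between a male and a female library.

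Multiciliated cells line the conducting airways and move mucus by the beating of motile cilia. The core of such a cilium, the axoneme, is a ring of microtubule doublets around a central pair. Outer and inner dynein arms on the doublets are the motors, with heavy chains that hold the ATPase and smaller intermediate and light chains, while radial spokes and the central pair regulate the beat and IFT carries building blocks into the growing cilium. Foxj1 is the transcription factor that switches on the motile cilium program, together with RFX factors that bind the X-box, a motif made of an inverted repeat. Loss of many of these genes causes primary ciliary dyskinesia.

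Most heavy chain genes have some of the longest coding sequences (CDS) of the genome, and the other members are mostly short. Among the tested genes 55 had a CDS of 10000 bases or more, and 9 of these were members. This contrast was used because reads were counted on CDS and the libraries differed in how counts depended on CDS length. Of the 39 members, 32 had a mean of at least 200 counts per library and were tested among 7195 genes. They were 8 heavy chains with a CDS of 10971 to 13863 bases, 19 short members with a CDS under 3000 bases (median 1290) and 5 other long members (Ift122, Ccdc40, Ift172, Spag17 and Hydin, 3729 to 15549 bases). The median CDS of the tested genes was 1548 bases. The 7 members below the filter were all heavy chains.

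Promoters were read for all 39 members, as the 250 bases before the start of the transcript with the longest CDS in GENCODE M1 (mm9), and searched on both strands for the X-box. The core site GTTGCC was present in 13 members (33.3%), against 10.8% of the promoters of tested genes and 9.77% of the promoters of all genes in the files. It was in 9 of the 19 short members (47.4%) and in 3 of the 15 heavy chains (20%). A full X-box, written here as GTTNCC and GNAAC with 2 to 4 bases between them, was in 6 members (15.4%), which were Dynlrb2, Dnaic2, Spag16, Spag17, Hydin and Dnahc9, against 1.29% of the tested genes. The core site can lie within the full one. The 5 promoters below show a core site of the regulator Foxj1 and full X-boxes of short members and of long ones, with the matched letters in capitals. The matches began 113, 51, 26, 21 and 100 bases before the start, in the order given. These are letter matches and not measured binding sites.
Foxj1, chr11:116196714-116196963, minus strand: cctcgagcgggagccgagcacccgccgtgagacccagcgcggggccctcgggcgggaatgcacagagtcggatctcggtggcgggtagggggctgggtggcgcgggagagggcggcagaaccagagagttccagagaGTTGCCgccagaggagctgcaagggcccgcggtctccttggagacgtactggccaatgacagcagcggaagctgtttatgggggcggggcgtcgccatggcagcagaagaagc
Dynlrb2, chr8:119028665-119028914, plus strand: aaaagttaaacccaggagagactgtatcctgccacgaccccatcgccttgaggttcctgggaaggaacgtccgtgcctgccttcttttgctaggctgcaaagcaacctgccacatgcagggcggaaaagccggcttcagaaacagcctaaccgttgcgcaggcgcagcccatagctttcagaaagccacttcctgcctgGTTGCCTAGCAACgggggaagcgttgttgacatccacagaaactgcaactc
Dnaic2, chr11:114588476-114588725, plus strand: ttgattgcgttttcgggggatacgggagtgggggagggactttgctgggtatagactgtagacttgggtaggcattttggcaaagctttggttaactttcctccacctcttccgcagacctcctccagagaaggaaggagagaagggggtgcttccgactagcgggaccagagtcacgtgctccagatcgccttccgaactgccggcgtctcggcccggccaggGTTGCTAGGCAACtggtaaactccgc
Hydin, chr8:112790627-112790876, plus strand: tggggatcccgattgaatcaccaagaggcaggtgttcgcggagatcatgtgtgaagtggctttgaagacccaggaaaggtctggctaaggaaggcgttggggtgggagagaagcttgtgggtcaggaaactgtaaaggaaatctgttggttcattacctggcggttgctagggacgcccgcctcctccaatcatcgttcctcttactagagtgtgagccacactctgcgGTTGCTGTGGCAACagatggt
Dnahc9, chr11:65982036-65982285, minus strand: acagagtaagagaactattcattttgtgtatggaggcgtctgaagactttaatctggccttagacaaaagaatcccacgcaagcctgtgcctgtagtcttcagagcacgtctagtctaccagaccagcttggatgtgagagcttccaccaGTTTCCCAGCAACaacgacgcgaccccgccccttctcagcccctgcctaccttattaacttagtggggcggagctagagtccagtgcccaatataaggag

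The libraries held 8020726 to 10944100 counts on CDS, and 3 counts, the floor for detection, correspond to 0.274 to 0.374 RPM (counts scaled to a common library total). The dependence of counts on CDS length differed between libraries. The slope of a library's log2 deviation on log2 CDS length lay between -0.24 and 0.41 per doubling of length, and was positive in both α7G control libraries and in both male α7E260A:G libraries and negative in the other 4. Markers of other cell types were present in all libraries. Club cell markers (5 of 5 detected in every library) summed to 48712 to 62337 RPM in α7G controls, 61712 to 78678 with CS, 28328 to 51717 in α7E260A:G controls and 18706 to 45726 with CS. Macrophage markers (8 of 8) summed to 18571 to 24894, 22685 to 27995, 34345 to 57033 and 43494 to 59564 RPM in the same order, although CD45-positive cells had been depleted. Of 4 basal cell markers, 2 were seen in every library. In bulk RNA, fewer cells of a type and less RNA per cell cannot be told apart.

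The motile cilia program was present in every library. Foxj1 had 154 and 298 RPM in the male and the female α7G control, 186 and 212 with CS, 192 and 82.1 in the α7E260A:G controls and 248 and 125 with CS. Its lowest and highest values were therefore both from control mice, and no pair of groups that differed only in CS or only in genotype was separate. Per kilobase of CDS, the tubulin-binding protein gene Tppp3 had the highest mean level (1224 RPKM, which is RPM per kilobase of CDS, averaged over the 8 libraries), followed by Dynlrb2 (437 RPKM), Foxj1 (148 RPKM) and Rsph1 (143 RPKM). Differences between genes in this order were not tested. The tested heavy chains lay between 2.44 and 9.69 RPKM (median 5.09) and the short members between 14.4 and 1224 RPKM (median 34.9).

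**Figure D1:**
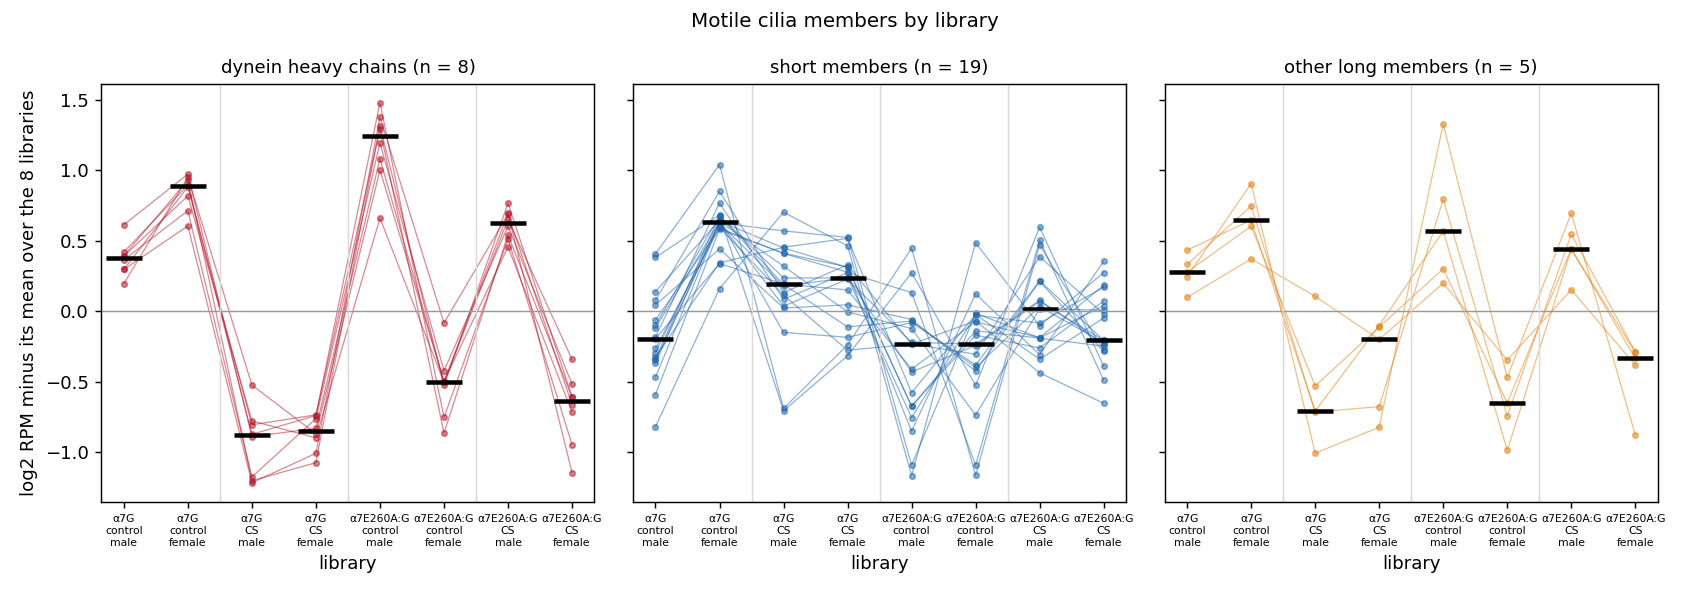
Each line is a tested member, plotted as its log2 RPM minus its own mean over the 8 libraries (vertical axis) in each library (horizontal axis), and black bars are the medians of the 8 heavy chains, the 19 short members and the 5 other long members. The heavy chains were low in both α7G CS libraries and high in the male α7E260A:G control, and the short members did not share that pattern.

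The outer arm heavy chains are the motors that set beat frequency. Dnahc5 had 99.6 and 145 RPM in the male and the female α7G control and 32.9 and 36.0 with CS. In α7E260A:G mice it had 189 and 52.6 RPM in controls and 129 and 49.8 with CS. In α7G mice both CS libraries were below both controls, while in α7E260A:G mice the male and female libraries were farther apart than control and CS. Dnahc9 and Dnahc11 followed the same order, Dnahc9 at 66.3 and 99.4 RPM in α7G controls and 30.8 and 32.4 with CS, then 132 and 29.6 in α7E260A:G controls and 78.5 and 35.3 with CS. Dnahc11 had 52.8 and 67.8 RPM, 18.6 and 19.4 RPM, 73.1 and 24.4 RPM, and 55.9 and 15.6 RPM in those groups. Dnahc8, which was below the filter, had 21.3 and 27.0 RPM in α7G controls and 7.22 and 7.45 with CS, and 29.4 and 11.7 RPM in α7E260A:G controls and 12.6 and 6.97 with CS. Dnahc17 stayed between 0.111 and 1.28 RPM, close to the floor.

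The inner arm heavy chains, which shape the waveform, showed the same arrangement. Dnahc6, the heavy chain with the highest level per kilobase, had 135 and 172 RPM in α7G controls, 46.3 and 61.7 with CS, 239 and 78.1 in α7E260A:G controls and 159 and 73.1 with CS. Dnahc3 had 74.5 and 92.2 RPM, 26.1 and 30.1 RPM, 158 and 57.2 RPM, and 97.6 and 38.3 RPM in the same order. For both genes the 2 α7G CS libraries were the lowest of the 8. Dnahc10 had 54.2 and 75.4 RPM in α7G controls, 22.1 and 24.3 with CS, 113 and 24.0 in α7E260A:G controls and 57.9 and 21.0 with CS. Dnahc1 and Dnahc12 were also lower in both α7G CS libraries than in both controls. Dnahc2 and Dnahc7b missed the filter, with 8.69 to 53.4 and 8.50 to 23.8 RPM, and Dnahc7a, Dnahc7c and Dnahc14 had at most 0.332 RPM, at or below the floor. In the annotation used, the CDS of Dnahc7a, Dnahc7c and Dnahc14 was 612, 612 and 1575 bases, far shorter than in the other heavy chains. The Dnahc7 genes are near-identical copies, so their split of the counts is uncertain.

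**Figure D2:**
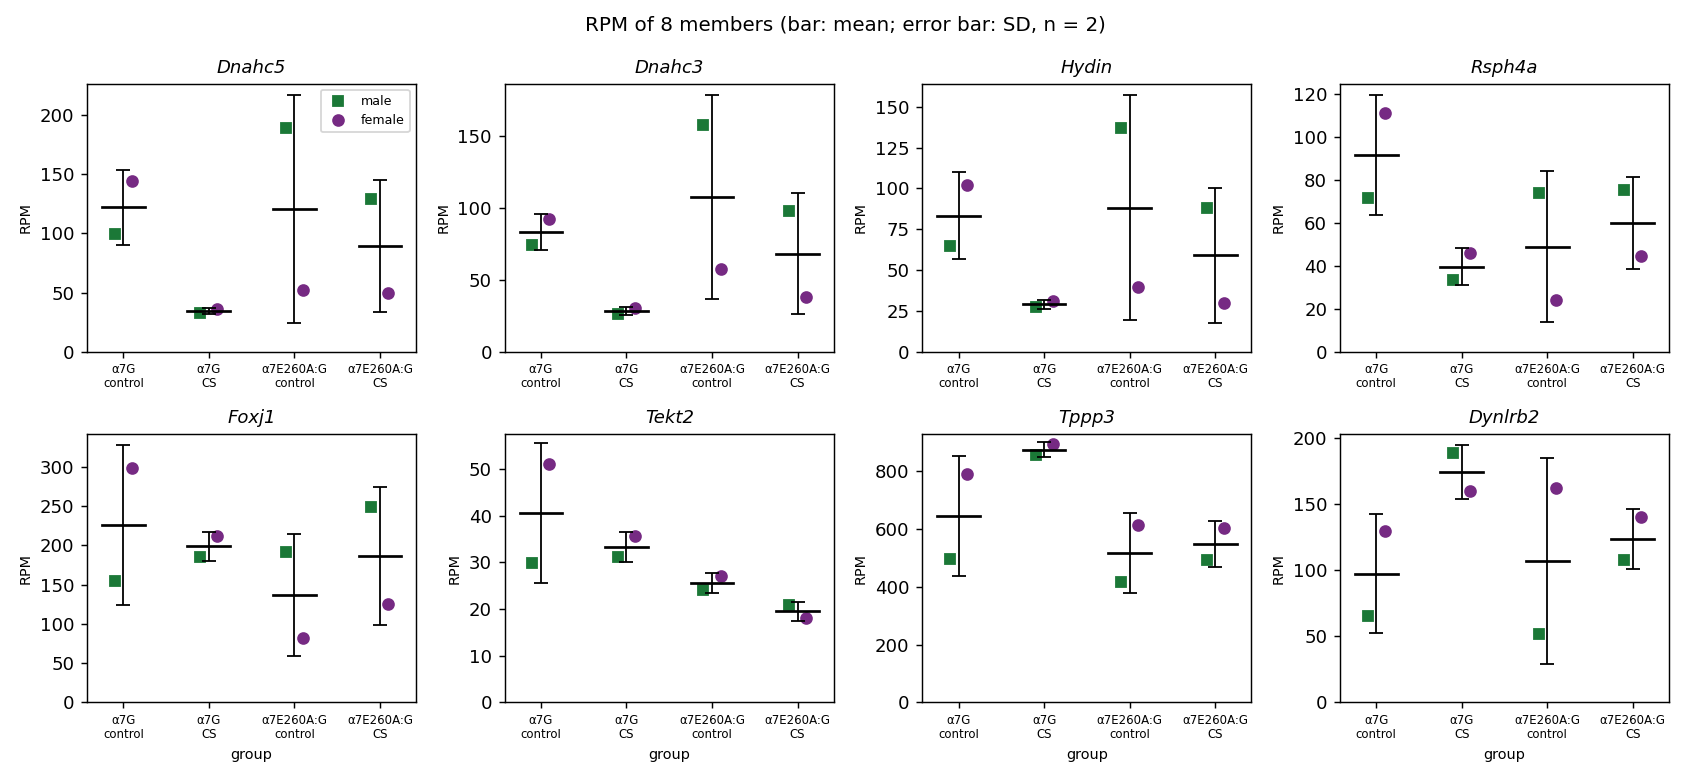
RPM of 8 members (vertical axes, from 0) in the 4 groups (horizontal axes), with the male library as a square, the female library as a circle, a line at the mean and error bars of 1 SD (n = 2). The long genes Dnahc5, Dnahc3 and Hydin and the shorter Rsph4a had both α7G CS libraries below both α7G controls, Tppp3 and Dynlrb2 had them above, and Tekt2 was lower in all α7E260A:G libraries than in all α7G libraries.

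Whether CS altered ciliary transcripts in α7G mice was the first comparison. Edge-to-edge separation of the pairs of libraries was common among the long members and rare among the short ones. Both CS libraries were below both controls in 8 of 8 tested heavy chains, in 4 of 5 other long members (Ccdc40, Hydin, Ift122 and Spag17) and in 3 of 19 short members (Ccdc39, Ift88 and Rsph4a), against 41.5% of all tested genes. Both were above both controls in 2 short members, Dynlrb2 and Tppp3, against 23.4% of all tested genes.

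The edgeR quasi-likelihood test called no member and none of the 7195 genes in this comparison (0% at an adjusted p of 0.05). Without adjustment 10 members, of which 6 were heavy chains, and 487 genes (6.77%) had a p under 0.05, and DESeq2 called 26 genes (0.361%) and no member. Dnahc5 had a log2 fold change of -1.71 ± 0.56 (SE, n = 2 libraries per group, edgeR adjusted p = 0.588) and a ratio of 0.33 in males and 0.25 in females. Those of Dnahc11, Dnahc3 and Dnahc6 were -1.55, -1.45 and -1.39, and all 8 tested heavy chains lay between -1.71 and -1.20. A fit of the 4 α7G libraries alone, which takes the spread from these libraries only, called 1159 genes (16.1%), 615 of them lower (8.55%) and 544 higher (7.56%). It called 12 members, all lower with CS, which were the 8 tested heavy chains, Hydin, Spag17, Rsph4a and Ccdc39. The adjusted p of Dnahc5 in that fit was 0.0145.

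The smaller dynein chains were measured beside the motors they belong to. Dynlrb2, a roadblock light chain that cytoplasmic dynein also uses, had 65.7 and 129 RPM in α7G controls and 189 and 160 with CS, and 51.7 and 162 RPM in α7E260A:G controls and 108 and 140 with CS. Its log2 fold change in α7G mice was 0.95 ± 0.64 (SE, edgeR adjusted p = 0.590), opposite in sign to that of the heavy chains. Dnali1, a light intermediate chain of the inner arm, had 44.3 and 84.2 RPM in α7G controls, 55.6 and 63.5 with CS, 46.5 and 46.1 in α7E260A:G controls and 57.2 and 46.2 with CS, so that the α7G CS values lay between those of the controls. The outer arm intermediate chains Dnaic1 and Dnaic2 had log2 fold changes of -0.03 and -0.11.

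Radial spokes and the central pair held both long and short members. Hydin, a giant central pair protein, had 64.6 and 102 RPM in α7G controls, 27.1 and 30.8 with CS, 137 and 39.4 in α7E260A:G controls and 88.3 and 29.6 with CS. Its log2 fold change with CS in α7G mice was -1.41 ± 0.59 (SE, edgeR adjusted p = 0.588), close to the heavy chains, whereas Spag6, a short central pair gene, had 48.5 and 82.9 RPM in α7G controls and 59.2 and 48.1 with CS (49.5 and 39.4, then 53.1 and 44.5 RPM in α7E260A:G mice) and a log2 fold change of -0.18. The groups overlapped for Spag6. Of the spoke head genes, Rsph1 had 96.2 and 194 RPM in α7G controls and 170 and 154 with CS, then 77.9 and 110 in α7E260A:G controls and 104 and 131 with CS. Rsph9 had 45.8 and 98.0 RPM, 94.2 and 91.1 RPM, 29.7 and 62.8 RPM, and 55.6 and 65.2 RPM in that order. Neither separated control from CS in either genotype. Rsph4a, named here after its values were seen, had both CS libraries below both controls in α7G mice. It had 71.7 and 111 RPM in α7G controls and 33.5 and 45.8 with CS, and 73.7 and 24.1 RPM in α7E260A:G controls and 75.1 and 44.6 with CS. Its log2 fold change in α7G mice was -1.09 ± 0.46 (SE, edgeR adjusted p = 0.588) where its CDS length of 2148 bases gave a fitted value of -0.18.

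Ccdc39 and Ccdc40 form the ruler that sets the spacing of dynein arms and spokes along the doublets. Ccdc39 had 89.4 and 110 RPM in α7G controls, 42.0 and 55.1 with CS, 82.9 and 47.6 in α7E260A:G controls and 104 and 52.3 with CS. Ccdc40 had 85.6 and 107 RPM, 48.9 and 65.3 RPM, 87.0 and 45.0 RPM, and 96 and 56.0 RPM in the same order. Both partners were below both controls in the α7G CS libraries, with log2 fold changes of -0.92 ± 0.33 (SE, edgeR adjusted p = 0.588) for Ccdc39 and -0.64 for Ccdc40, and in α7E260A:G mice their male and female libraries differed more than control and CS.

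Among the remaining short members, Tppp3 had 498 and 792 RPM in α7G controls and 856 and 894 with CS, and 418 and 615 RPM in α7E260A:G controls and 493 and 604 with CS. Its log2 fold change in α7G mice was 0.55 ± 0.39 (SE, edgeR adjusted p = 0.595). Mlf1, an airway ciliated cell gene, had 52.9 and 119 RPM in α7G controls, 106 and 96.7 with CS, 44.2 and 86.9 in α7E260A:G controls and 64.5 and 102 with CS, and its groups overlapped. The IFT gene Ift88 had 61.6 and 87.4 RPM in α7G controls, 50.4 and 49.2 with CS, 52.9 and 42.9 in α7E260A:G controls and 65.0 and 48.5 with CS. Ift172, an IFT gene of 5247 bases, had 104 and 125 RPM, 104 and 84.3 RPM, 111 and 76.1 RPM, and 108 and 74.2 RPM in that order. It was the other long member without separation in α7G mice, and its log2 fold change of -0.16 stood against a fitted value of -0.67.

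Across the members, fold change followed CDS length. In α7G mice the median log2 fold change with CS was -1.38 in the 8 tested heavy chains, -0.80 in the 5 other long members and 0.00 in the 19 short members (10 higher and 9 lower), against -0.02 over all tested genes. The median of the short members was -0.36 without the male α7G control and 0.55 without the female one, while that of the heavy chains stayed between -1.60 and -1.08 without any single library. Scaling by library size alone moved the median of all tested genes to -0.12. Pearson's r of log2 fold change with log2 CDS length was -0.94 over the 32 members and -0.88 over the 24 without heavy chains, beside -0.75 over the other 7163 tested genes. These correlations run across genes of the same libraries, and genes are not independent replicates. Of 46 tested genes with a CDS of 10000 bases or more that were no members, 44 were lower with CS in α7G mice, with a median of -1.12 and an interquartile range of -1.26 to -0.86.

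A value fitted from CDS length over the 7163 other tested genes, without the members, was set beside each member. For the heavy chains in α7G mice the median fitted value was -1.17, and all 8 lay below their fitted values, by 0.04 to 0.51 with a median of 0.26 on the log2 scale. Of all 7195 tested genes 3653 lay below theirs. The sexes differed in this. In the female libraries the heavy chain median of -1.57 was below a fitted -0.89, and in the male libraries -1.23 was above a fitted -1.44. The short members had a median difference from the fit of -0.01, with 8 above and 11 below. The 2 cytoplasmic dynein heavy chains, which have a CDS of 13932 and 13036 bases, are not part of the dynein arms. Dync2h1 works in cilia and was also among the listed general cilium and IFT genes described below. Dync1h1, the motor of cytoplasmic dynein, had a log2 fold change of -0.90 (fitted -1.20), and Dync2h1, the motor of retrograde IFT, had -1.57 (fitted -1.16). With the length dependence of each library entered as an offset in edgeR, the median of the heavy chains in α7G mice was -0.31, and no member and no gene was called (0%). The part of CDS length in the difference between heavy chains and short members was not tested beyond these values.

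**Figure D3:**
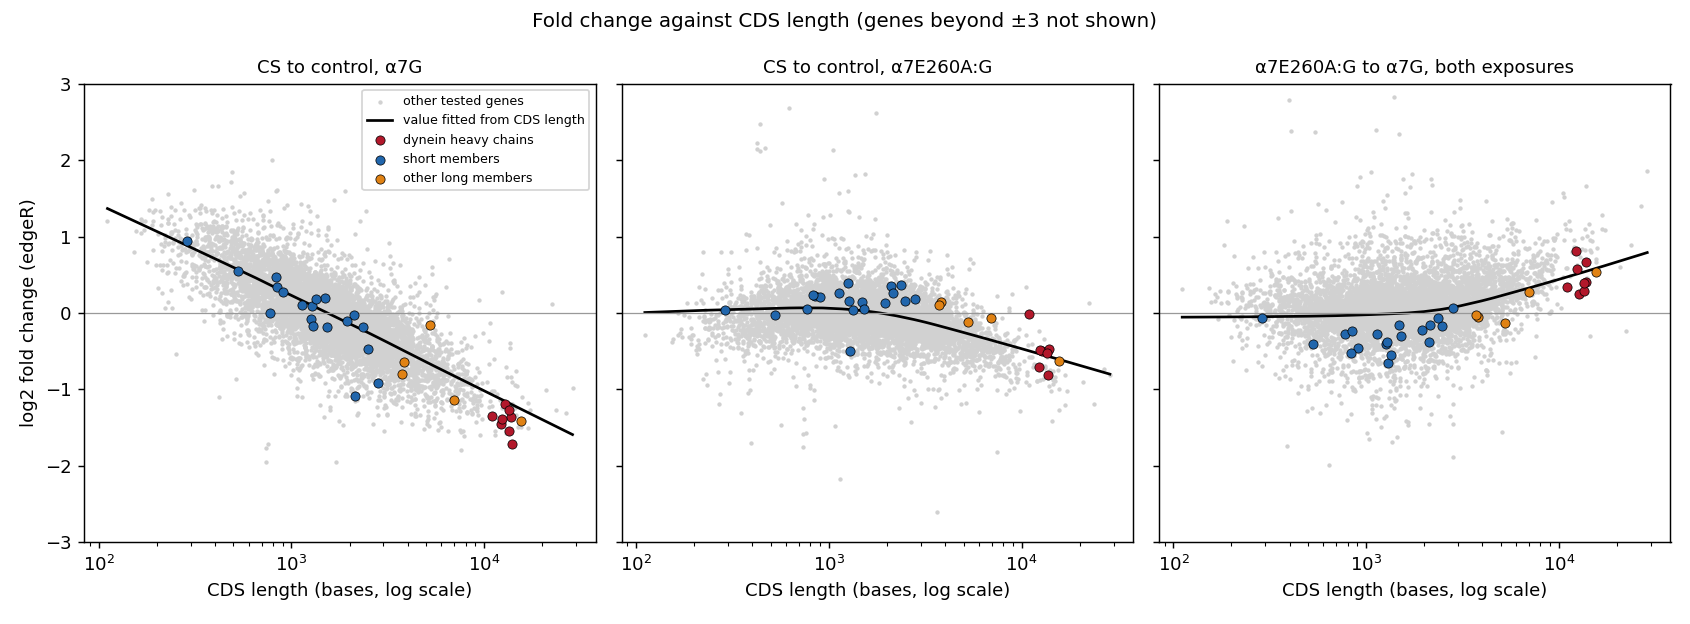
Log2 fold change (vertical axes, edgeR) against CDS length (horizontal axes, log scale) for 7195 tested genes in 3 comparisons, with heavy chains in red, short members in blue, other long members in orange, other genes in grey and the value fitted from length as a line. With male and female libraries fitted together, the heavy chains lay below the line with CS in α7G mice and around it in α7E260A:G mice. The short members lay below it in the comparison of genotypes.

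With CS in α7E260A:G mice the heavy chains had a negative and the short members a positive median. No member and none of 7195 genes was called by edgeR (0%), no member and 121 genes (1.68%) had an unadjusted p under 0.05, and DESeq2 called 11 genes (0.153%) and no member. Both CS libraries were below both controls in Tekt2 alone among the 32 tested members (2.78% of all tested genes) and above both in Dnaic1, Spag16 and Tekt1 (15.7%). The median log2 fold change was -0.50 in the heavy chains, with a median fitted value of -0.55, and 0.16 in the short members, against -0.04 over all tested genes. Dnahc10 had -0.82 ± 0.63 (SE, edgeR adjusted p = 1.00) and Dnahc3 had -0.71 ± 0.46 (SE, edgeR adjusted p = 1.00). Without the male α7E260A:G control library the median of the heavy chains was 0.36 and that of the short members was -0.082. Both thus changed sign, but that fit sets the female control alone against a male and a female CS library. Between the female control and the female CS library the medians were -0.30 in the heavy chains and 0.01 in the short members.

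The responses of the genotypes were compared through an interaction term. EdgeR called no member and no gene (0%), 2 members and 104 genes (1.45%) had an unadjusted p under 0.05, and DESeq2 called 3 genes (0.0417%) and no member. The 2 members, named after their values were seen, were Dnahc12, at 1.33 ± 0.52 (SE), and Ccdc39, at 1.10 ± 0.46 (SE), on the log2 scale. The median interaction of the heavy chains was 0.83, beside a fitted 0.62, and that of the short members was 0.07. The heavy chain median was 0.38 with the length offset, 0.19 without the male α7E260A:G CS library, 0.35 without the female α7E260A:G control and 1.78 without the male one. The short member median was -0.46 without the female α7G control and 0.47 without the male one, and -0.17 without the male α7E260A:G control. Over both genotypes CS gave medians of -0.98 in the heavy chains and 0.12 in the short members, with no member and no gene called by edgeR (0%), 8 members, 7 of them heavy chains, and 545 genes (7.57%) under an unadjusted p of 0.05, and 39 genes (0.542%) and no member called by DESeq2. The heavy chain median was -0.13 with the length offset and -0.51 without the male α7E260A:G control, and the short member median was -0.054 without the male α7G control and 0.38 without the female one. This comparison uses the same libraries as those within each genotype.

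The genotypes were then compared over both exposures. EdgeR called 6 of 7195 genes (0.0834%) and no member, and DESeq2 called 427 genes (5.93%) and no member. With the male and female libraries as blocks edgeR called 40 genes (0.556%) and no member. Of the tektins, filament proteins in the wall of the doublets, Tekt2 and Tekt4 separated the genotypes and Tekt1 did not. Tekt2 had 29.9 and 51.1 RPM in α7G controls, 31.1 and 35.6 with CS, 24.1 and 27.0 in α7E260A:G controls and 20.9 and 18.0 with CS. Tekt4 had 39.1 and 61.4 RPM, 54.3 and 50.8 RPM, 25.6 and 37.1 RPM, and 35.8 and 34.4 RPM in the same order. All 4 α7E260A:G libraries were below all 4 α7G libraries in these 2 of the 32 tested members. That share was near the 5.14% of all tested genes, and in no member were all 4 above (2.99%). The exact two-sided permutation p was 0.0286 for Tekt2 and for Tekt4, among 78 such tests of members. It is the smallest that 4 against 4 libraries can give, and any full separation gives it. Tekt2 had a log2 fold change of -0.65 ± 0.24 (SE, edgeR adjusted p = 0.320). Tekt1 had 65.6 and 133 RPM in α7G controls, 97.8 and 97.7 with CS, 61.5 and 70.1 in α7E260A:G controls and 87.0 and 71.9 with CS, and its genotypes overlapped.

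Between the genotypes the short members and the heavy chains had medians of opposite sign. The 5 other long members had a median of -0.02, with 2 higher and 3 lower in α7E260A:G mice. When libraries were matched by sex and exposure, the α7E260A:G value was the lower in all 4 pairs in 7 short members, which were Ccdc113, Rsph1, Rsph9, Tekt1, Tekt2, Tekt4 and Tppp3, against 15% of all tested genes, and in no heavy chain. In no member was it the higher in all 4 pairs (7.84%). Among the short members 18 of 19 had a log2 fold change below 0, with a median of -0.28 against 0.04 over all tested genes. All 19 lay below the value fitted from length, as did 3452 of all 7195 tested genes. Members measured in the same libraries are not independent replicates. The heavy chains had a median of 0.39, with a fitted median of 0.53, and all 8 were above 0. Dnahc3 was the highest at 0.82 ± 0.33 (SE, edgeR adjusted p = 0.385). The median of the heavy chains was -0.015 without the male α7E260A:G control, and that of the short members was -0.073 without the female α7G control. The 46 other genes with a long CDS had a median of 0.85. With the length offset the heavy chains had a median of -0.26, against -0.01 over all tested genes, and 31 of the 32 tested members were below 0. That fit called 476 genes (6.62%) but no member. With offset and block together 675 genes (9.38%) but no member were called, and for CS over both genotypes 2 genes (0.0278%) but no member. Macrophage markers were higher, and the summed markers of alveolar type 2 cells (8 of 8 detected) were lower, in α7E260A:G libraries (4760 to 14823 RPM) than in α7G libraries (20096 to 30654 RPM), and their part in the result was not tested.

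The RPM of the 8 tested heavy chains and of the 19 short members were also summed in each library. In α7G mice the heavy chains summed to 586 and 801 RPM in the male and the female control and to 228 and 248 RPM with CS, while the short members summed to 1564 and 2677 RPM in controls and to 2277 and 2291 RPM with CS. In α7E260A:G mice the heavy chains summed to 1046 and 324 RPM in controls and to 702 and 293 RPM with CS, and the short members to 1412 and 1643 RPM and to 1807 and 1758 RPM. Tppp3 alone held 498 and 792 RPM of the short member sums in α7G controls and 856 and 894 with CS. In α7E260A:G mice Tppp3 held 418 and 615 RPM in controls and 493 and 604 with CS. The 2 CS libraries of α7G mice had the lowest heavy chain sums, and the 3 lowest short member sums were from the male α7G control and both α7E260A:G controls.

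With CS in α7G mice the male and the female libraries gave the same sign for the heavy chains and opposite signs for the short members, and the difference between the sexes was not tested. From control to CS in α7G mice the heavy chains had a median log2 ratio of -1.23 in males and -1.57 in females, with 8 of 8 lower in each. The short members had 0.53 in males, with 16 of 19 higher, and -0.31 in females, with 2 of 19 higher. The female α7G control was the library with the highest median of the short members, 0.58 above the mean of the libraries on the log2 scale, and its heavy chains stood 0.83 above theirs. In α7E260A:G mice the heavy chains had -0.58 in males and -0.30 in females, and the short members 0.31 and 0.01.

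**Figure D4:**
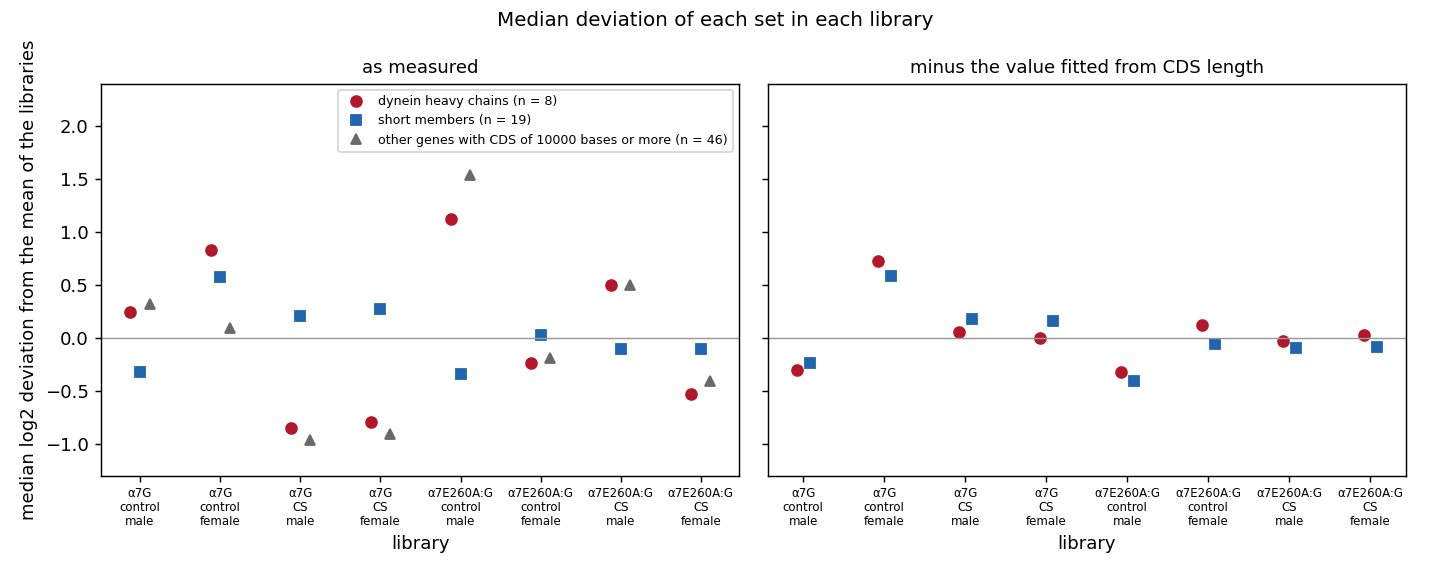
Median log2 deviation of a library from the average library (vertical axes) for the 8 tested heavy chains, the 19 short members and, in the left panel, 46 other genes with a CDS of 10000 bases or more, in each of the 8 libraries (horizontal axes). In the left panel the heavy chains lay within 0.42 of the other long genes except in the female α7G control (0.83 against 0.09), and after the value fitted from CDS length was subtracted in the right panel, heavy chains and short members lay within 0.18 of each other in every library.

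With the fitted length dependence subtracted, heavy chains and short members took nearly the same position in each library. Their medians differed by at most 0.18 on the log2 scale, where the difference before subtraction reached from -1.07 to 1.47. After subtraction the female α7G control was highest (0.73 in heavy chains and 0.59 in short members), the male α7G control and the male α7E260A:G control were low (-0.31 and -0.24, and -0.32 and -0.41), and the 2 α7G CS libraries were at 0.05 and 0.00 in heavy chains and at 0.18 and 0.16 in short members. The α7G CS libraries therefore lay between the male and the female control of that genotype for both kinds of member.

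Other genes of the cilium were taken from 5 lists that did not overlap the members, covering regulators, assembly and docking of dynein arms, the nexin-dynein regulatory complex, further motile cilia genes, and general cilium and IFT genes. Of 87 symbols 76 were in the files and 56 were tested. EdgeR called none of the 56 in any comparison. With CS in α7G mice 22 were higher and 34 lower, with a median log2 fold change of -0.14. With CS in α7E260A:G mice 46 were higher and 10 lower (median 0.14), and between the genotypes 10 were higher and 46 lower in α7E260A:G mice (median -0.21). Over all tested genes the medians of these last comparisons were -0.04 and 0.04. The 8 tested genes for assembly and docking of dynein arms, which preassemble the motors in the cytoplasm and anchor them to the doublet, were all lower in α7E260A:G mice, with a median of -0.28.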

How the data were processed

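The authors aligned reads of stranded poly-A RNA-Seq libraries with STAR to the mm9 (NCBIM37) build and counted reads on CDS with htseq-count and GENCODE M1, as the study's methods state. Tool versions are not given in the sources used here. The authors deposited raw counts of 22756 genes for each of 8 libraries, with no normalization. All genes were found in GENCODE M1, which gave coordinates and CDS lengths. RPM were computed from total counts on CDS, and RPKM as RPM per kilobase of CDS. The members and lists were chosen with earlier results of these data known.

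Genes with a mean of at least 200 counts per library were tested, leaving out immunoglobulin, histocompatibility, Gm and ribosomal protein genes by name, after the study's filter. Counts of 7195 genes were fitted with edgeR 4.0.16 in R 4.3.3 (glmQLFit and glmQLFTest, TMM scaling, 4 groups) with Benjamini-Hochberg adjustment over all of them. SE were taken as the log2 fold change over the root of F. The tests were checked on simulated counts with a common spread and no dependence on CDS length or sex. The check therefore does not cover how they behave where libraries differ in these ways. DESeq2 1.42.0 was an alternative, beside library size scaling, filterByExpr, no filter, a length offset, the male or female library as a block, fits of 4 libraries and leaving out each library. For the length offset, the log2 deviation of a library from the average library (0.5 added to the scaled CPM) was smoothed on log2 CDS length by lowess with a span of 0.667. An adjustment of permutation p over the members had been planned and is not given, since the members were chosen with results known. Labels give the sex of a library and no replicate number, so male and female libraries were numbered 1 and 2. The male minus female differences of groups correlated at -0.12 to 0.84, with a mean of 0.33. The main model held no term for sex, and the block of male and female libraries was an alternative.

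Values are given per library for Foxj1 and for the 2 members with the highest mean counts in each role. They are also given for the 3 members with the largest absolute log2 fold change with CS in each genotype and between genotypes. Promoters were read from the NCBIM37 genome. Python 3.11.15 was used with pandas 2.3.3, numpy 2.4.6, scipy 1.17.1 and matplotlib 3.10.9.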

Additional observations from a re-analysis of the deposited data

Results flagged for a closer look

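In 9 of the 32 tested members the log2 ratio of α7E260A:G to α7G had opposite signs in the male and the female libraries at both exposures, higher in males and lower in females. The mean log2 ratio in males minus that in females was 2.15 for Dnahc10, 2.11 for Hydin, 1.92 for Dnahc11, 1.72 for Rsph4a, 1.68 for Foxj1, 1.55 for Ift122, 1.24 for Ccdc40, 0.72 for Dnali1 and 0.52 for Ift172. The difference between the sexes was not tested. The share of all tested genes with such opposite signs is not given, so the count is not read as particular to the members. The slope on CDS length was 0.41 and 0.19 per doubling in the male α7E260A:G control and CS libraries and -0.24 and -0.20 in the female ones, and its part in these differences was not tested.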

How the results depend on the processing

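Of the values recomputed under an alternative setting, 525 kept their direction and side of the threshold or moved within the spread of the libraries, 29 moved further, 15 reversed and 7 passed the threshold where they had not. The settings of the length offset without the members and of the male or female libraries alone were chosen after seeing the data. In the fit of the 4 α7G libraries 12 members were called in place of 0, since the spread was then taken from these libraries alone. In the other alternatives, and without each library in turn, no member was called.

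With the length offset the median of the heavy chains with CS in α7G mice went from -1.38 to -0.31 (-0.25 with the replicate block), and was -0.31 and -0.25 with an offset fitted without the members. Their difference from the short members went from -1.38 to -0.32 (-0.28 with the block), to -0.32 and -0.28 without the members, and to -1.76 in the male libraries alone. Leaving out each library gave -1.60 to -1.08 for the heavy chains and -1.64 to -1.24 for the difference. In α7E260A:G mice the same 4 settings, in the same order, reversed the heavy chains from -0.50 to 0.069, 0.10, 0.071 and 0.10, and moved the difference from -0.66 to -0.12, -0.11, -0.12 and -0.11 and the median of all 32 members from 0.05 to 0.17, 0.18, 0.17 and 0.18. Leaving out each library there gave -1.10 to 0.36 for the heavy chains, -0.082 to 0.47 for the short members, -1.47 to 0.44 for the difference and -0.029 to 0.18 for all members. The first 3 changed sign without the male α7E260A:G control, where Dnahc10 was 0.43 and Hydin 0.29 (-1.56 to 0.43 and -1.45 to 0.29 over the libraries left out). Hydin was also 0.032 and 0.038 with block and offset, the latter fitted without the members. Between genotypes, leaving out each library gave -0.49 to -0.073 for the short members, the first without the male and the second without the female α7G control, and Dnahc5 reversed from 0.67 to -0.047, -0.019, -0.051 and -0.023 under the 4 offset settings. Causes were not tested beyond the construction of each setting.

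The replicate block of male and female libraries changed no call of a member. It raised the genes called between the genotypes from 6 to 40 and gave medians with CS in α7G mice of -1.40 in the heavy chains and 0.05 in the short members. The counts of called genes between genotypes were 427 with DESeq2, 476 with the length offset and 675 with block and offset.

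Each group had 2 libraries, and 7 heavy chains were too low to test. Sex and library cannot be told apart within a group. CDS length and membership in the heavy chains were nearly the same split, so their effects on these counts can be separated only as far as the 46 other long genes and the 5 other long members allow.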
